A study of Mus musculus with 22 samples.

Results

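The 41 genes described here make the enzymes of fatty acid and cholesterol synthesis, their regulators and 1 lipid droplet protein. They were chosen by name, from a list, and 40 of the 41 were matched among the 33964 genes of the deposited mouse choroid plexus (ChP) tables. By role, 6 members supply acetyl-CoA or reducing power and build the fatty acid chain, 5 are elongases, 5 are desaturases, 7 are regulators, 7 lead from HMG-CoA to squalene, 10 lead from squalene to cholesterol, and 1, Plin4, coats lipid droplets. Hmgcs1, the HMG-CoA synthase, was not analysed here. The ChP is the epithelium with its vessels and stroma that makes cerebrospinal fluid in the brain ventricles, and the transcription factor OTX2 is expressed in it.

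RNA was sequenced from 14 pools in 7 groups of 2 pools each. In the conditional model, Otx2lox/lox mice of 3 months, labelled S129, received Cre-Tat, a cell-permeable Cre recombinase, or vehicle into the lateral ventricles, and the ChP of the lateral ventricle (LV) and of the fourth ventricle (4V) were collected separately 15 days later. Each pool held the tissue of 5 mice for Cre-Tat or 4 mice for vehicle, and vehicle mice carried the same floxed alleles. In the constitutive set, labelled B6D2, 4V ChP came from wildtype (WT), Otx2(+/-) and Otx2(+/AA) mice, of which WT and Otx2(+/-) were 3 months old. The study describes the Otx2(+/-) mice as Otx2+/GFP heterozygotes that carry the change constitutively, and the Otx2(+/AA) allele is not described in the sources used here. Cre-Tat acts on cells it reaches rather than through a cell type promoter, and the study checked Otx2 by qPCR before pooling. Whether LV and 4V pools of the same letter held the same mice is not given in the sources used here. For the constitutive set the study's methods name 4 Otx2+/GFP mice and 5 wildtype littermates, in duplicate samples. Whether the 2 pools of each constitutive group held separate mice is not clear from them.

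Cells make saturated fatty acids from acetyl-CoA through acetyl-CoA carboxylase and fatty acid synthase, then lengthen them with elongases and introduce double bonds with desaturases. Cholesterol comes from the same acetyl-CoA by the mevalonate route, through squalene and lanosterol. SREBP transcription factors, held in the endoplasmic reticulum by INSIG proteins and carried out of it by SCAP, switch on both sets of genes, and the liver X receptors respond to oxysterols.

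Pool totals ran from 22750019 to 50088408 counts. In 14 of the 16 conditional files the library number and the recorded sample pointed to different pools, and the library number was followed. Pairs of files with 1 number differed by at most 1.032 chi-square per degree of freedom, against at least 13.2 for pairs attached to 1 pool. With the files taken as recorded, several values below turned direction, as given at the end. Otx2 itself, counted over a whole transcript, was higher where the labels give a knockdown. Its level, in read counts scaled to a common library total (CPM), was 1208 and 1002 in the pools labelled Cre-Tat LV against 377 and 459 in vehicle LV, and 1175 and 1194 in Cre-Tat 4V against 377 and 384 in vehicle 4V. It was 1062 and 913 CPM in the pools labelled Otx2(+/-) against 370 and 314 in WT, and 350 and 366 in Otx2(+/AA). In the conditional model the part removed by Cre could not be counted apart in these tables, so there this gene does not check the labels. In Otx2(+/-), where no Cre was used, the whole-transcript value went against the label, and the reason was not tested. The study counted the reads of a single Otx2 exon, which these whole-transcript counts do not give. Each direction below is that of the pools so labelled. Epithelial markers were abundant in every pool, with a summed level of 84134 to 224915 CPM over 8 genes, mostly from Ttr. Adipocyte markers summed to 0.269 to 2.54 CPM over 5 genes.

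Promoters of 5 of the 10 members that fell in the 4V ChP labelled Cre-Tat are shown because the SREBP route is known to work with the CCAAT-binding factor NF-Y. Stretches of 120 bases that end before the transcript are printed from RefSeq windows (GRCm38.p6), with CCAAT or its reverse complement ATTGG in capitals. Of the 8 fallen members with such a stretch, 4 held the motif within these 120 bases and are shown first. The other 4 did not, namely Elovl7, shown last, and Elovl6, Me1 and Cyp51.
Acss2 (2:155517923-155518042, plus strand): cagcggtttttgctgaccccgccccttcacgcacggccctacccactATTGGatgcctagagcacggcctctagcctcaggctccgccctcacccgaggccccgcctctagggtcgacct
Fasn (11:120824548-120824667, minus strand): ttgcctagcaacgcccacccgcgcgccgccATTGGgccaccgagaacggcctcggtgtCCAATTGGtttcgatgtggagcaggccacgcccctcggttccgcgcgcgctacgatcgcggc
Fads3 (19:10041428-10041547, plus strand): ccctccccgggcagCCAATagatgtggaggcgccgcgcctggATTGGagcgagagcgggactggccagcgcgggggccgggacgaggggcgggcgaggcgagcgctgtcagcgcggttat
Msmo1 (8:64733579-64733698, minus strand): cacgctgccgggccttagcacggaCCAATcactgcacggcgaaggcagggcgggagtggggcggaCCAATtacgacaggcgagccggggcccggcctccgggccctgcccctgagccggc
Elovl7 (13:108214284-108214403, plus strand): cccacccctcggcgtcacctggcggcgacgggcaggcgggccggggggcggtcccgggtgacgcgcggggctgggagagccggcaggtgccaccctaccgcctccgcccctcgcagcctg

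In the Fasn stretch the motif and its reverse overlap. Over whole windows of 300 bases, searched on both strands, CCAAT was found in 27 of the 35 members with a window, or 77.1%. The share was 41.1% of the 27025 genes with one. Me1 and Cyp51 were among the 27, so they held the motif outside the stretch, and Elovl6 and Elovl7 were not. Among genes tested in the 4V comparison the shares were 78.1% of 32 members and 42.6% of 10517 genes. The letters TCACNCCAC, a sterol element, were found in the window of 1 member, Hmgcs1, and in 1.44% of all genes with a window. TAATCC, the core that OTX2 recognises, was found for Insig2, Mvk, Nr1h3 and Scap, which is 11.4% of the members with a window against 8.14% of all genes. Scd1, Scd2, Fads1, Fdps, Fdft1 and Sqle had no window.

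Per kilobase of transcript, desaturases and 1 elongase led the list. Scd2, a stearoyl-CoA desaturase, was highest in each control group, at 191 CPM per kb in vehicle LV, 152 in vehicle 4V and 162 in WT 4V. Elovl7, which lengthens very long chain fatty acids, came next at 100, 94.4 and 127 CPM per kb, then Fads1, the delta-5 desaturase, at 92.9, 73.5 and 104. In vehicle LV the pools of Elovl7 (95.9 to 104) and Fads1 (89.4 to 96.5) overlapped, and these neighbours could not be ordered there. Msmo1, a sterol C4-methyl oxidase, was the highest of the cholesterol enzymes at 62.6, 40.5 and 53.8 CPM per kb. Among regulators Srebf1 had the highest mean at 25.8, 28.7 and 23.6, though in WT its pools (18.3 to 28.8) spanned those of Insig2 (22.3 to 22.4), among chain-building genes Acly, the ATP citrate lyase, at 22.3, 22.8 and 31.2, and in the mevalonate route Pmvk at 18.6, 16.7 and 20.4 CPM per kb. Elovl2 stayed between 0 and 0.269 CPM and passed the filter on low counts in no comparison, and Idi1 did not pass it in the Cre-Tat 4V comparison. Values of the 2 models were scaled within each model, so levels set side by side across models share no scaling.

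The first question was what happened to these genes in the 4V ChP labelled Cre-Tat. Fatty acid genes were lower across roles: both stearoyl-CoA desaturases, Fads3, Elovl6, Elovl7, Fasn, Acss2 and Me1 fell, as did the cholesterol enzymes Cyp51 and Msmo1, while Plin4 rose. Of 38 members tested, 10 fell and 1 rose by edgeR's quasi-likelihood test at an adjusted p under 0.05. Over all 14537 genes tested 10.7% were called, 4.99% as lower and 5.7% as higher. The median log2 fold change was -0.37 over the members and 0.01 over all genes, or -0.17 and 0.02 without vehicle 4V pool A, and 32 of the 38 members were below 0. In 25 of the 38 members, or 65.8%, both pools labelled Cre-Tat were below both vehicle pools, against 25.4% of all genes. In 3 of the 38 both were above, against 25% of all genes. Unadjusted p was under 0.05 for 20 of the 38 members and for 22.2% of all genes.

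**Figure D1:**
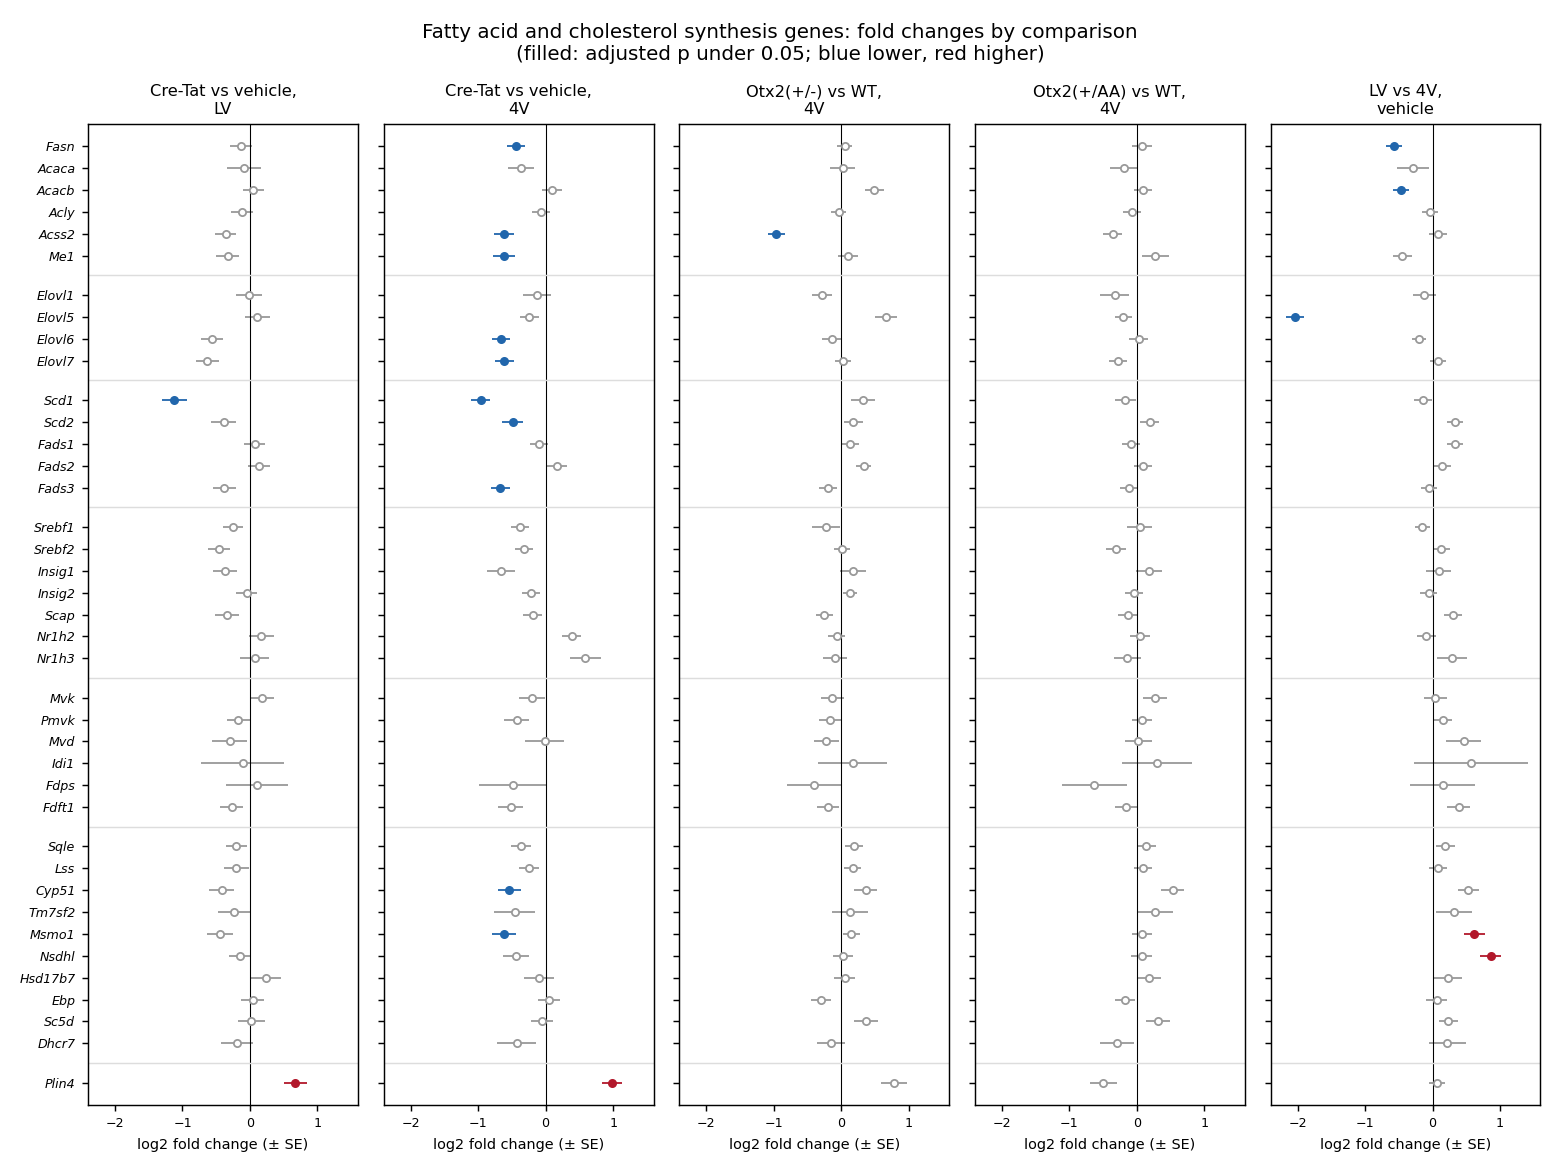
Log2 fold change (x axis, ± standard error) of each tested member (y axis, grouped by role in the order of the text) in the 5 comparisons; filled points have an adjusted p under 0.05, blue lower and red higher in the group named first. In the 4V Cre-Tat panel 10 members are filled blue and Plin4 is filled red.

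Scd1 (19:44394455-44407709, mm10), the desaturase that makes monounsaturated fatty acids from saturated ones, had the lowest fold change of the 38 members. Its level was 125 and 136 CPM in the Cre-Tat 4V pools and 279 and 230 CPM in vehicle 4V. No Cre-Tat pool reached a vehicle pool, and the log2 fold change was -0.96 ± 0.14 (SE, adjusted p = 0.00021, edgeR). The call held when any 1 pool was left out. Scd2 (19:44293674-44306864), its neighbour, had 616 and 557 CPM against 871 and 786 (log2 -0.49 ± 0.15, adjusted p = 0.045, edgeR), a call lost without Cre-Tat 4V pool B, vehicle 4V pool A or vehicle 4V pool B (adjusted p up to 0.42, edgeR). Fads3, a member of the desaturase cluster on the same chromosome, had 84.5 and 75.8 CPM against 136 and 120 (log2 -0.67 ± 0.14, adjusted p = 0.0035, edgeR). Fads1 and Fads2, the delta-5 and delta-6 desaturases of polyunsaturated fatty acids, had log2 values of -0.10 and 0.17 and did not pass.

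Among the elongases, Elovl6, which lengthens palmitate, had 44.5 and 47 CPM in Cre-Tat 4V and 73.2 and 71.6 CPM in vehicle 4V. The pools were far apart relative to their spread (log2 -0.66 ± 0.13, adjusted p = 0.0029, edgeR). Elovl7 had 224 and 269 CPM against 379 and 378 (log2 -0.61 ± 0.14, adjusted p = 0.0086, edgeR). Elovl1 and Elovl5 did not pass, with log2 values of -0.13 and -0.24. Some 16.2% of the Elovl6 transcript is near-identical to stretches of 261 other genes.

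In the group that supplies and builds the chain, Acss2, which makes acetyl-CoA from acetate, had 20.7 and 18.8 CPM against 29.1 and 31.8 (log2 -0.62 ± 0.15, adjusted p = 0.013, edgeR). Me1, the cytosolic malic enzyme that yields NADPH, had 15.9 and 19.4 CPM against 27.6 and 27.1 (log2 -0.62 ± 0.16, adjusted p = 0.016, edgeR). Fasn, the fatty acid synthase, had 40.6 and 39.9 CPM against 53.2 and 56.3 (log2 -0.44 ± 0.13, adjusted p = 0.039, edgeR). For each of the 3 genes the groups did not overlap. The Fasn call was lost when any 1 pool was left out (adjusted p 0.057 to 0.25, edgeR), and by DESeq2 (adjusted p = 0.079). The Acss2 call was lost without vehicle 4V pool B (adjusted p = 0.089), the Me1 call without Cre-Tat 4V pool A or vehicle 4V pool A (up to 0.085), and those of Elovl7 and Fads3 without vehicle 4V pool A (0.076 and 0.07, all by edgeR). Acly, Acaca and Acacb, the last 2 of them acetyl-CoA carboxylases, did not pass, at -0.07, -0.36 and 0.09. Near-identical copies cover 62.5% of the Me1 transcript and 64.3% of the Acaca transcript, so reads may have been split among genes, and 13.2% of the Acss2 transcript overlaps genes on the opposite strand.

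**Figure D2:**
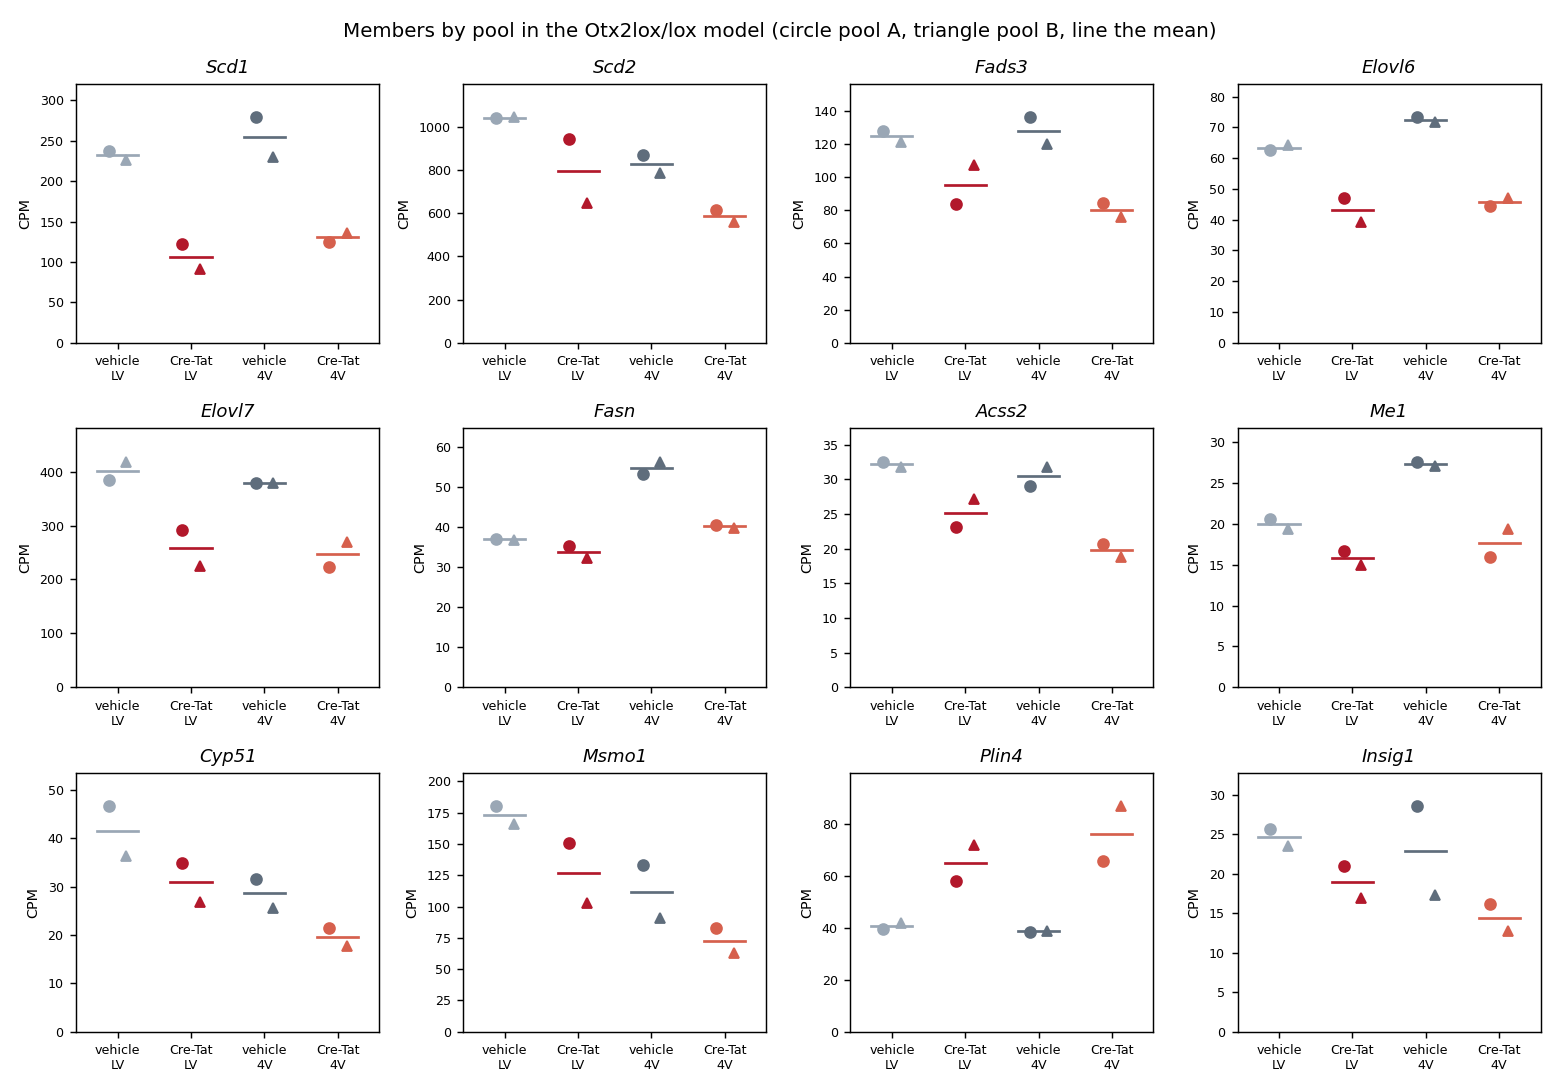
CPM (y axis, linear from 0) in each pool of the conditional model for the 11 members that passed in 4V and for Insig1; circles are pool A, triangles pool B and lines the mean of the 2 pools. For Scd1 both Cre-Tat pools lie below both vehicle pools in each ventricle, and for Plin4 both lie above.

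Among the cholesterol enzymes, Msmo1 had 82.7 and 62.6 CPM against 133 and 90.7 (log2 -0.62 ± 0.18, adjusted p = 0.03, edgeR). Cyp51, the lanosterol demethylase, had 21.5 and 17.8 CPM against 31.6 and 25.6 (log2 -0.54 ± 0.17, adjusted p = 0.046, edgeR). The vehicle pools of both genes were themselves apart, and both calls were lost without vehicle 4V pool A (adjusted p = 0.53 and 0.46, edgeR) or without Cre-Tat 4V pool B (0.084 and 0.19). DESeq2 did not call Cyp51 (adjusted p = 0.098). No other of the 15 sterol members tested passed, but 14 of the 15 had negative values, with a median of -0.43.

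Of the 7 regulators edgeR called 0, and 5 had an unadjusted p under 0.05. Insig1, which holds SREBP back and is itself an SREBP target, had 16.2 and 12.7 CPM against 28.5 and 17.3, with a log2 value of -0.66 ± 0.21 (adjusted p = 0.053, edgeR). Srebf1 had -0.38 and Srebf2 -0.32, while the liver X receptor genes Nr1h2 and Nr1h3 had 0.39 and 0.59.

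Plin4, a perilipin of the lipid droplet surface, moved the other way. It had 65.6 and 86.7 CPM in Cre-Tat 4V and 38.5 and 38.7 CPM in vehicle 4V (log2 0.98 ± 0.15, adjusted p = 0.00024, edgeR). Both Cre-Tat pools were above both vehicle pools, and the call held when any 1 pool was left out.

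The count of 11, which was 9 by DESeq2, depended on single pools and on scaling. Without vehicle 4V pool A 4 members passed, Scd1, Plin4, Elovl6 and Acss2. Scaled by total counts, the median of all genes was 0.15 and 6 members passed, of which Scd1, Fads3 and Elovl6 were lower and Plin4, Nr1h2 and Nr1h3 higher. Relative to the all-gene median, the members' median stayed at -0.37, with 13 of 15 fatty acid and 14 of 15 sterol members below it. A change of scaling moves all genes by nearly the same amount, so this could hardly have differed and is no check.

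Cell type markers moved with these results. All 8 epithelial markers were called lower in Cre-Tat 4V, with a summed level of 95202 and 84134 CPM against 212683 and 179771. Most of that sum was Ttr, at 72147 and 59712 CPM against 164454 and 135686. The study names Ttr as a known direct target of OTX2, so the sum mainly follows this gene. Taken singly, the 8 markers had log2 values from -1.18 to -0.53. Of 5 macrophage markers 4 were called higher (102 and 68.2 against 43.5 and 44 CPM). The astrocyte markers Aqp4 and Gfap, the ependymal marker Foxj1 and the oligodendrocyte marker Cnp were called higher, and Aldh1l1 (astrocyte), Syt1 (neuron) and Pdgfra (fibroblast) lower. Summed ependymal markers were at 247 and 248 against 155 and 129 CPM, and summed astrocyte markers at 96.1 and 97.7 against 123 and 104. Most of the ependymal sum was Foxj1, at 175 and 185 against 99.2 and 83.4 CPM. Most of the astrocyte sum was Aldh1l1, at 57.9 and 55.9 against 90.7 and 84.6 CPM, while Aqp4 and Gfap rose. In such tissue pools fewer cells of a type and less RNA per cell cannot be told apart. The part of these markers in the members' values was not tested.

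In the LV ChP labelled Cre-Tat, Scd1 fell and Plin4 rose, and no other member passed. That is 2 of 39 members or 5.13%, against 3.24% of the 14990 genes tested, so the count was near that of all genes. Higher calls were 2.21% and lower calls 1.03% of all genes. Scd1 had 122 and 90.9 CPM against 238 and 226 in vehicle (log2 -1.12 ± 0.18, adjusted p = 0.003, edgeR), and the groups did not overlap. Plin4 had 57.9 and 71.8 CPM against 39.7 and 41.7 (log2 0.67 ± 0.17, adjusted p = 0.04, edgeR). The Scd1 call held with each pool left out. The Plin4 call did not hold without Cre-Tat LV pool B, vehicle pool A or vehicle pool B.

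In 22 of the 39 members, or 56.4%, both Cre-Tat LV pools were below both vehicle pools, against 20.5% of all genes. In 3 of the 39 both were above, against 21.9% of all genes. Other members had values of the same sign as in 4V without passing. Elovl7 had a log2 value of -0.63 (adjusted p = 0.065, edgeR), Elovl6 -0.56 (adjusted p = 0.087, edgeR) and Scd2 -0.39 (adjusted p = 0.37, edgeR). Scd2 was 943 and 647 CPM in Cre-Tat LV, so its 2 pools differed more from each other than pool A did from vehicle (1040 and 1043). Without Cre-Tat LV pool A 6 members passed, and without any 1 of the other pools 1 passed, Scd1. The median was -0.17 over the members and 0.00 over all genes, or -0.09 and 0.01 without Cre-Tat LV pool B. Scaled by total counts the median of all genes was 0.17 and that of the members -0.00, with 8 of 15 fatty acid and 7 of 16 sterol members then above 0.

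Whether the response differed between ventricles was tested as an interaction. No member passed by edgeR, none had an unadjusted p under 0.05, and DESeq2 called 0 of 39. Of all 15552 genes 0.00643% were called. For Scd1 the difference of the log2 fold changes, LV minus 4V, was -0.15 ± 0.23, and for Fasn it was 0.31 ± 0.19. Epithelial markers were called lower in 3 of 8 in LV, with a summed level of 119687 and 160204 CPM against 215961 and 224915. Ttr, which made most of that sum, was not among the 3. Macrophage markers were called higher in 3 of 5. Also called in LV were Aqp4, Slc1a2, Foxj1, Rsph1, Cnp and Snap25 as higher and Aldh1l1 and Pdgfra as lower.

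The constitutive heterozygotes asked the same question of a lifelong change. In 4V ChP labelled Otx2(+/-), Acss2 fell and no other member passed, which is 1 of 39 members against 3.53% of the 14561 genes tested, 1.74% as lower and 1.79% as higher. Acss2 had 17.2 and 15.8 CPM against 31.4 and 32.8 in WT. The heterozygote pools were at about the same level as each other and clearly apart from WT (log2 -0.96 ± 0.13, adjusted p = 0.0064, edgeR), and the call held with each pool left out. Acss2 was thus called lower in the 4V pools of both models, and its LV value was -0.36 ± 0.16 (adjusted p = 0.35, edgeR).

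Elovl5, an elongase of polyunsaturated fatty acids, had 135 and 99.6 CPM against 80.9 and 67.8 in WT (log2 0.66 ± 0.16, adjusted p = 0.072, edgeR). Plin4 had 25.2 and 21.6 CPM against 15.8 and 11.4 (log2 0.78 ± 0.19, adjusted p = 0.064, edgeR). Neither passed here, and both passed as higher by DESeq2 and when scaled by total counts, each of which called 3 members. Without Otx2(+/-) pool B 4 members passed, and without WT pool A or WT pool B 3 did. The members' median was 0.03 and that of all genes -0.00. Epithelial markers were called lower in 3 of 8, namely Prlr, Folr1 and Ttr, with a summed level of 128671 and 136545 CPM against 203941 and 194993. Most of that sum was Ttr, at 78987 and 92654 CPM against 151514 and 144059, and 2 of the 8 markers had positive log2 values.

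**Figure D3:**
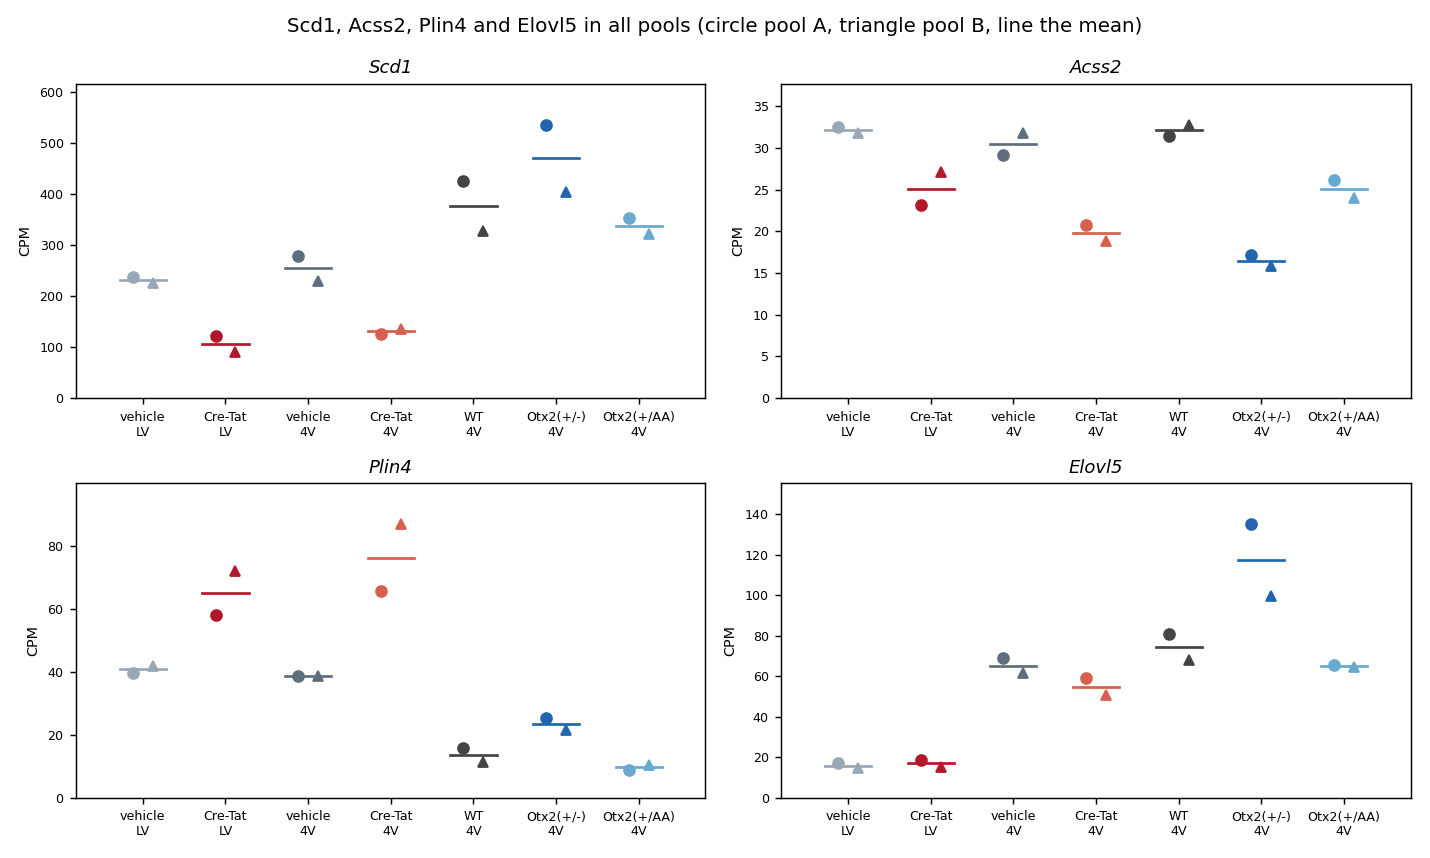
CPM (y axis, linear from 0) of Scd1, Acss2, Plin4 and Elovl5 in all 14 pools; circles are pool A, triangles pool B and lines the mean. Acss2 lies below its control pools in Cre-Tat LV, Cre-Tat 4V, Otx2(+/-) and Otx2(+/AA). Scd1 lies below vehicle in both ventricles while the Otx2(+/-) and WT pools overlap. The 2 models were scaled separately.

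For Scd1 the models differed. It had 536 and 404 CPM in Otx2(+/-) and 425 and 327 in WT, so the groups overlapped (log2 0.32 ± 0.18, adjusted p = 0.39, edgeR). The difference between the 4V fold changes, conditional minus constitutive, was -1.30 ± 0.24 (adjusted p = 0.016, edgeR). Scd1 was the only member of 39 called by edgeR in this interaction, in which 1.61% of 15314 genes were called, and DESeq2 called 5 members. Other members leaned the same way without passing. Of the 39, 31 had negative values, with a median of -0.36 against 0.01 for all genes. Unadjusted p was under 0.05 for 16 of the 39 and for 12.9% of all genes by edgeR. Model, strain and any batch of the 2 sets cannot be told apart.

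In Otx2(+/AA) against the same WT pools, edgeR called 0 of 39 members, and DESeq2 0. Unadjusted p was under 0.05 for 4 members by edgeR and for 3 by DESeq2. Of 14482 genes 0.345% were called, and 8.9% had an unadjusted p under 0.05 by edgeR. Cyp51 came nearest, at 71.6 and 60 CPM against 37 and 53.7 (log2 0.53 ± 0.17, adjusted p = 0.28, edgeR), and it passed when WT pool B was left out, as 1 member. Acss2 had 26.2 and 24 CPM (log2 -0.36 ± 0.14, adjusted p = 0.42, edgeR). Since both heterozygous groups were set against the same WT pools, their values are not independent.

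The vehicle pools also allowed the ventricles to be compared, using pools that served as controls above. Elovl5, Fasn and Acacb were higher in 4V, and Msmo1 and Nsdhl were higher in LV. That is 5 of 39 members against 7.49% of the 14548 genes tested, 3.49% as higher and 4% as lower in LV. Elovl5 had 17.2 and 14.5 CPM in vehicle LV and 69.2 and 61.4 CPM in vehicle 4V, a level 4.12 times higher in 4V (log2 LV over 4V -2.04 ± 0.14, adjusted p = 2.7e-06, edgeR). The same order was seen in the Cre-Tat pools, at 18.8 and 15.2 CPM in LV and 59 and 50.9 in 4V. Of the 39 members tested between vehicle ventricles, Elovl5 had the largest difference in size, and its call held with each pool left out.

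Fasn had 37 and 36.9 CPM in vehicle LV against 53.2 and 56.3 in 4V (log2 -0.57 ± 0.12, adjusted p = 0.011, edgeR). Acacb, the carboxylase that also limits fatty acid oxidation, had 54.6 and 64.4 against 78 and 86.9 (log2 -0.47 ± 0.12, adjusted p = 0.034, edgeR). Nsdhl, a sterol dehydrogenase of the C4 demethylation, had 24.4 and 24.5 CPM in LV against 14.6 and 12.2 in 4V (log2 0.86 ± 0.15, adjusted p = 0.0039, edgeR), and Msmo1 had 180 and 166 against 133 and 90.7 (log2 0.62 ± 0.16, adjusted p = 0.032, edgeR). All 16 sterol members tested had positive values, with a median of 0.23 against 0.01 for all genes. Scaled by total counts, where the median of all genes was -0.19, 11 of the 16 were above 0 and all 16 above that median. The last could hardly change with scaling, which moves all genes by nearly the same amount. Without vehicle 4V pool B only Elovl5 passed, and the Acacb call was also lost without vehicle LV pool A or vehicle 4V pool A. In 11 of the 16 both LV pools were above both 4V pools, as were 26.9% of all genes.

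**Figure D4:**
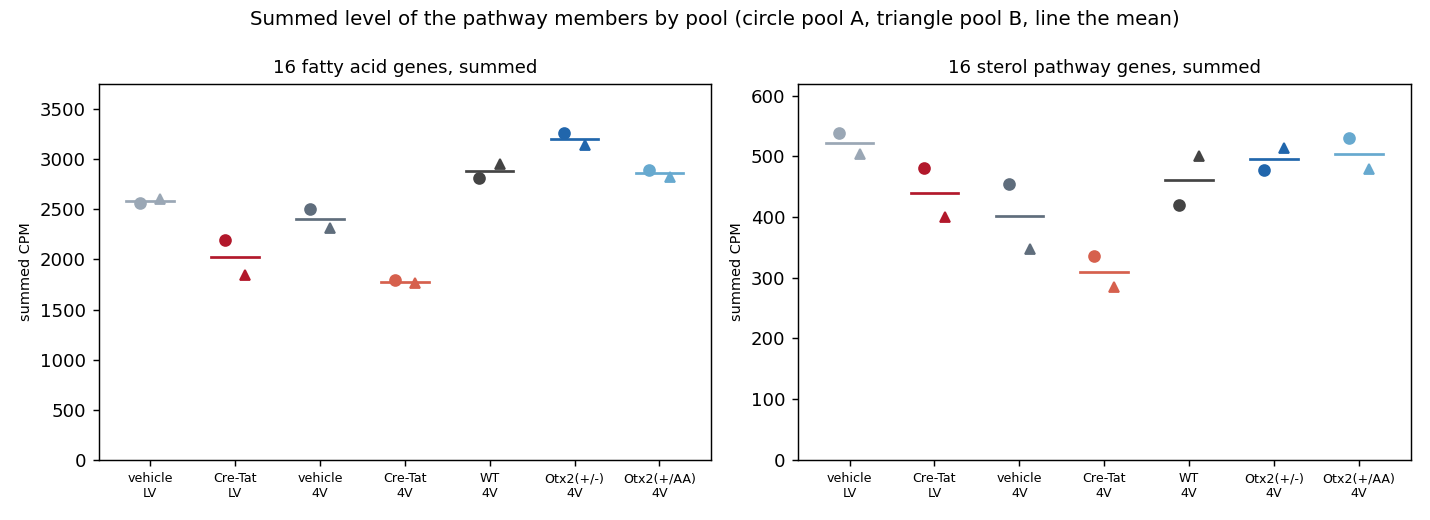
Summed CPM (y axis, linear from 0) of the fatty acid members (left) and sterol members (right) in each of the 14 pools; circles are pool A, triangles pool B and lines the mean. The Cre-Tat 4V pools had the lowest sums, 1793 and 1761 CPM for fatty acid members and 335 and 284 for sterol members.

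Summed over members, levels were lower in the pools labelled Cre-Tat. Fatty acid members came to 1793 and 1761 CPM in Cre-Tat 4V against 2499 and 2309 in vehicle 4V, and to 2198 and 1848 in Cre-Tat LV against 2559 and 2603 in vehicle LV. Sterol members came to 335 and 284 CPM in Cre-Tat 4V against 455 and 347. In LV they came to 480 and 400 against 539 and 504. These sums rest largely on abundant members. In vehicle 4V Scd2 had 871 and 786 CPM and Elovl7 379 and 378, and among sterol members Msmo1 had 133 and 90.7 and Sqle 96.6 and 72.4.

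Other genes of lipid metabolism, taken from pathway lists, gave further calls in the conditional model, where 10.7% of all genes were called in 4V (5.7% as higher, 4.99% as lower) and 3.24% in LV (2.21% and 1.03%). In Cre-Tat 4V, 2 of 7 LXR target and sterol efflux genes were called. Npc2, which carries cholesterol out of lysosomes, fell by 0.74 on the log2 scale and Soat1, which esterifies cholesterol, fell by 0.49. The others, among them Abca1, Abcg1 and Mylip, were not called, and 3 of the 7 had values above 0. Npc2 also fell in Otx2(+/-), by 0.86 on the log2 scale, with 148 and 157 CPM against 290 and 264.

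Lipid droplet and oxidation genes included some that rose. Plin5, the perilipin that ties droplets to mitochondria, had 7.53 and 6.3 CPM in Cre-Tat 4V against 2.25 and 1.44 (log2 1.88), and 5.54 and 7.44 in Cre-Tat LV against 2.8 and 2.77 (log2 1.22). Pnpla2, the triglyceride lipase, rose in 4V (log2 0.89), and Mgll, the monoacylglycerol lipase, fell (log2 -0.50). These made 2 higher and 1 lower of 9 tested in 4V, and 1 higher of 9 in LV. Of 21 oxidation genes 2 rose in each ventricle, or 9.52%. Pdk4, which turns off pyruvate dehydrogenase, had 63 and 102 CPM in Cre-Tat 4V against 34.9 and 38.2, and Acox2, a peroxisomal oxidase of branched chains and bile acid intermediates, had 12.4 and 10.7 against 2.03 and 2.89. In LV Pdk4 had 37.7 and 39.4 CPM against 21.8 and 22.3, and Acox2 8.4 and 9.06 against 2.52 and 2.67. Of 16 genes of fatty acid activation and glycerolipids, Thrsp, which is known to promote lipogenesis, rose in both ventricles (log2 0.97 in LV and 1.10 in 4V), and Acsl4 fell in 4V (log2 -0.68).

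In Otx2(+/-), where 3.53% of all genes were called, edgeR called 0 of the 9 droplet and 0 of the 21 oxidation genes tested, with an unadjusted p under 0.05 for 1 gene of each list. Acsl3, an acyl-CoA synthetase, rose (70.5 and 71.3 CPM against 43.7 and 51). Between vehicle ventricles, Cidea, a droplet fusion protein, was much lower in LV, at 1.35 and 1.7 CPM against 10.1 and 10.7 in 4V (log2 -2.77), and G0s2, an inhibitor of triglyceride lipase, was also lower (log2 -1.11). Mgll was higher in LV, at 32.6 and 43.3 CPM against 24.2 and 24.3 (log2 0.64), so that 3 of 9 droplet genes were called, against 7.49% of all genes. Of 16 activation genes Acsl4 was higher in LV (log2 0.44). Of 21 oxidation genes 3 were lower in LV, namely Pdk4 (log2 -0.73), Hadhb of the mitochondrial trifunctional protein (-1.04) and the carnitine palmitoyltransferase Cpt1b (-0.69). In Otx2(+/AA) edgeR called 0 genes of these lists, with an unadjusted p under 0.05 for 0 to 2 genes of each. In the test of the difference between models, Pnpla2 (1.05) and Acox2 (1.94, both log2) were called among the droplet and oxidation genes.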

How the data were processed

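The deposited tables hold read counts per transcript, 1 table per library, made by the authors. The submitters' processing notes name bcl2fastq 1.8.4, Bowtie 0.12.9, SAMtools, HTSeq 0.5.3, DESeq 1.8.3 and mm10. Technical runs of 1 library number were summed. Transcripts were named with GENCODE vM21 (82807 of 95533 matched, with 89.5% of counts), and the transcript with most counts stood for a gene. Counts per transcript were used where the plan assumed counts per gene. CPM values were scaled with TMM factors over the pools of each model. Comparisons used edgeR 4.0.16 (R 4.3.3), filterByExpr and quasi-likelihood F tests over all genes with Benjamini-Hochberg adjustment and a threshold of 0.05, and standard errors were taken from the F statistic. The tests were also run on simulated counts, with 1 spread for all genes and planted changes larger than most of those called here. Calls of the size reported were thus not checked by it. DESeq2 1.42.0, other scalings and filters, a replicate block, summed transcripts, joint fits, each pool left out and files as attached were alternatives. Near-identical sequence was sought with BLAST 2.17.0, over at least 50 bases at 96% identity. Total counts per pool (22750019 to 50088408) and 2 pools per group limit the precision. Pools of 1 conditional group came from separate mice per the study's methods, and p-values measure the spread between pools. In the constitutive set, where separate mice per pool are not established, that spread may not be one between mice.

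Named genes are members past the threshold in any comparison, the member with the highest level per length in each role, members below the filter, Otx2, and up to 4 called genes of each pathway list; others named were chosen after their values were seen. Members and lists were chosen with earlier results of these data known. Results for a further list of sterol genes are not reported here.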

Additional observations from a re-analysis of the deposited data

Results flagged for a closer look

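Scd1 differed between the 2 models under the knockdown label in 4V ChP, by a test of the difference itself. Its log2 fold change was -0.96 ± 0.14 in the conditional model and 0.32 ± 0.18 in the constitutive model, and the difference was -1.30 ± 0.24 (adjusted p = 0.016, edgeR). Over the 7 alternatives tried for this difference the value ran from -1.30 to -1.18 and the adjusted p from 3.4e-08 to 0.038. Leaving out single pools and taking the files as attached were not among them, so dependence on these was not tested. Both Cre-Tat pools were below both vehicle pools, and the Otx2(+/-) and WT pools overlapped. Model, strain and any batch of the 2 sets cannot be told apart.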

How the results depend on the processing

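With the files as attached, 24 members passed in Cre-Tat LV, 29 in Cre-Tat 4V and 22 between vehicle ventricles, and these log2 values turned: Plin4 to -0.12 in LV; in 4V Scd2 to 0.40, Acss2 to 0.33, Elovl7 to 0.05, Fads3 to 0.31, Cyp51 to 0.62, Msmo1 to 0.88 and Plin4 to -0.28; between ventricles Fasn to 0.02 and Elovl5 to 0.22. Scd1 kept its sign at -0.11 in LV and -0.12 in 4V, and Elovl6 at -0.12 in 4V. In Cre-Tat LV (2 members) DESeq2, no filter and the joint fit of all groups of the model gave 4 each and summed transcripts 1. In Cre-Tat 4V (11 members) total counts gave 6, and summed transcripts and the joint fit 7 each, and leaving out each pool 4 to 14. For Otx2(+/-) (1 member) DESeq2, total counts and the joint fit gave 3 each, and leaving out each pool 1 to 4. For Otx2(+/AA) (0 members) no filter gave 1, and leaving out each pool 0 to 1. Between vehicle ventricles (5 members) summed transcripts and the joint fit gave 3 each, and leaving out each pool 1 to 6. In the model interaction (1 member) DESeq2 gave 5 and no filter 7. The cause was not tested. With a replicate block of pool letters, 20 members passed in Cre-Tat 4V, 8 in Otx2(+/-), 1 in Otx2(+/AA), 10 between vehicle ventricles and 2 in the model interaction. Nothing in the labels ties pools of 1 letter, and their deviations correlated at -0.16 in LV, 0.23 in Cre-Tat 4V, 0.39 for Otx2(+/-), 0.095 for Otx2(+/AA) and 0.12 between ventricles. With the letters crossed in LV, an alternative chosen after seeing the data, 4 members passed. With 2 pools per group, members near 1 CPM (Fdps, Idi1) and those with copies elsewhere (Fdps 87.7%, Fdft1 70.6% of the transcript) are the least certain.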

Other observations

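Within some groups, most sterol members differed between the 2 pools in 1 direction. In vehicle 4V 13 of 15 sterol members were higher in pool A, with a median log2 difference of 0.30, and in Cre-Tat 4V 13 of 15 were, with a median of 0.24. In WT the order was the other way, with 12 of 16 higher in pool B and a median of -0.24. Over all genes tested 48.6%, 49.3% and 48.7% were higher in pool A in these groups. Msmo1 (133 and 90.7 CPM), Insig1 (28.5 and 17.3) and Sqle, the squalene epoxidase (96.6 and 72.4), were among the genes that differed between the vehicle 4V pools. Fatty acid members were nearer to an even split, with 11 of 15 higher in pool A in vehicle 4V, 9 of 15 in Cre-Tat 4V and 7 of 15 in WT. These are values of 2 pools per group, seen after the data were examined and not tested.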
